A study of Danio rerio with 10 samples.

Results

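Methionine salvage and the methyl cycle were followed through 9 zebrafish genes in RNA-seq of whole tpcn2 mutant and wild-type embryos: mtap, mri1, apip, enoph1, adi1, amd1, ahcy, mat2aa and mat2ab. They were taken by symbol from a table of 14650 genes, and all 9 were found and tested. The list was chosen by the level of apip, already known to be nearly absent in the mutant, so the apip difference is a description here and carries no test. The other 8 genes were chosen as neighbouring steps of the same metabolism. The question was whether those steps follow apip.

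The comparison was between 2 groups of 5 libraries: embryos of a line labelled TPC2 mutant, for which the labels give neither allele nor background strain, and wild-type embryos of the ABTU strain. Both were whole embryos at the 17 to 18 somite stage kept at 28 °C. The sources do not say whether the wild types are siblings of the mutants, nor whether replicates are separate clutches. Genotype, strain background and clutch therefore cannot be told apart. The p-values set the group difference against the spread within these groups, which may not include the spread between clutches. Total counts per library were 17890367 to 21699665 in the mutant and 18616906 to 22498643 in wild type. tpcn2, which encodes a lysosomal cation channel, was at 6.72 to 10.3 CPM in mutant embryos, against 47.1 to 81.1 CPM in wild type, a check of the labels (CPM, counts of a gene per 1000000 counts of the TMM-scaled library). All 16 markers of embryonic tissues were at 1 CPM or more in every library. Of these, 7 were higher and 3 lower in the mutant (62.5% called, against 42.2% of all tested genes). Their summed level was 31883 to 35567 CPM in mutant embryos, against 31817 to 37138 CPM in wild type. Without the epidermal keratin gene krt4, which carries most of that sum, it was 4727 to 5223 CPM in mutant embryos, against 5110 to 5831 CPM in wild type. Opposite shifts can cancel in such sums. apoa2, of the yolk syncytial layer, was at 1520 ± 99.7 CPM in mutant embryos, against 2621 ± 327 CPM in wild type (SD, n = 5). ctslb, of the hatching gland, was at 1640 ± 101 CPM in mutant embryos, against 1081 ± 103 CPM in wild type. Neither gene had overlapping libraries, which held for 28.7% of all tested genes. Libraries also did not overlap for epcam, kdr and foxa2, higher in the mutant, and for acta1a, lower in the mutant. They overlapped for the other markers. The part of the markers in the results was not tested. In whole embryos, fewer cells of a type and less RNA per cell cannot be told apart.

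Cells make S-adenosylmethionine from methionine and use it in 2 ways. As a methyl donor it becomes S-adenosylhomocysteine, which is cleaved to homocysteine and remethylated to methionine. As a donor of aminopropyl groups for spermidine and spermine it leaves methylthioadenosine, which the salvage pathway turns back into methionine. In that pathway Mtap splits methylthioadenosine, Mri1 isomerises the sugar phosphate, Apip removes water from it, Enoph1 acts as enolase and phosphatase, Adi1 opens the product with oxygen, and an aminotransferase completes methionine.

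apip was nearly absent in the mutant. It had 1, 7, 4, 2 and 4 reads in mutant replicates 1 to 5, against 1232, 1734, 1461, 1327 and 1739 reads in wild-type replicates 1 to 5. In scaled units these were 0.0556 to 0.335 CPM in mutant embryos, against 65.5 to 82.5 CPM in wild type, so the groups lay far apart and 18 apip reads came from the mutant libraries and 7493 from the wild-type libraries. The mean was 0.182 ± 0.112 CPM in mutant embryos, against 74.3 ± 7.33 CPM in wild type (SD, n = 5 each), 408-fold lower. The fitted log2 fold change of -8.61 was the second lowest of the 11871 genes tested. The authors' deposited table gives -6.95, whereas DESeq2 run here on the same counts gave -8.66. The deposited test statistic of -24.6 is not that value divided by its deposited standard error of 0.185, so the deposited value is an unlike measure. Whether it was shrunken is not stated in the sources used here. The coefficient of variation among wild-type libraries was 9.87%.

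**Figure D1:**
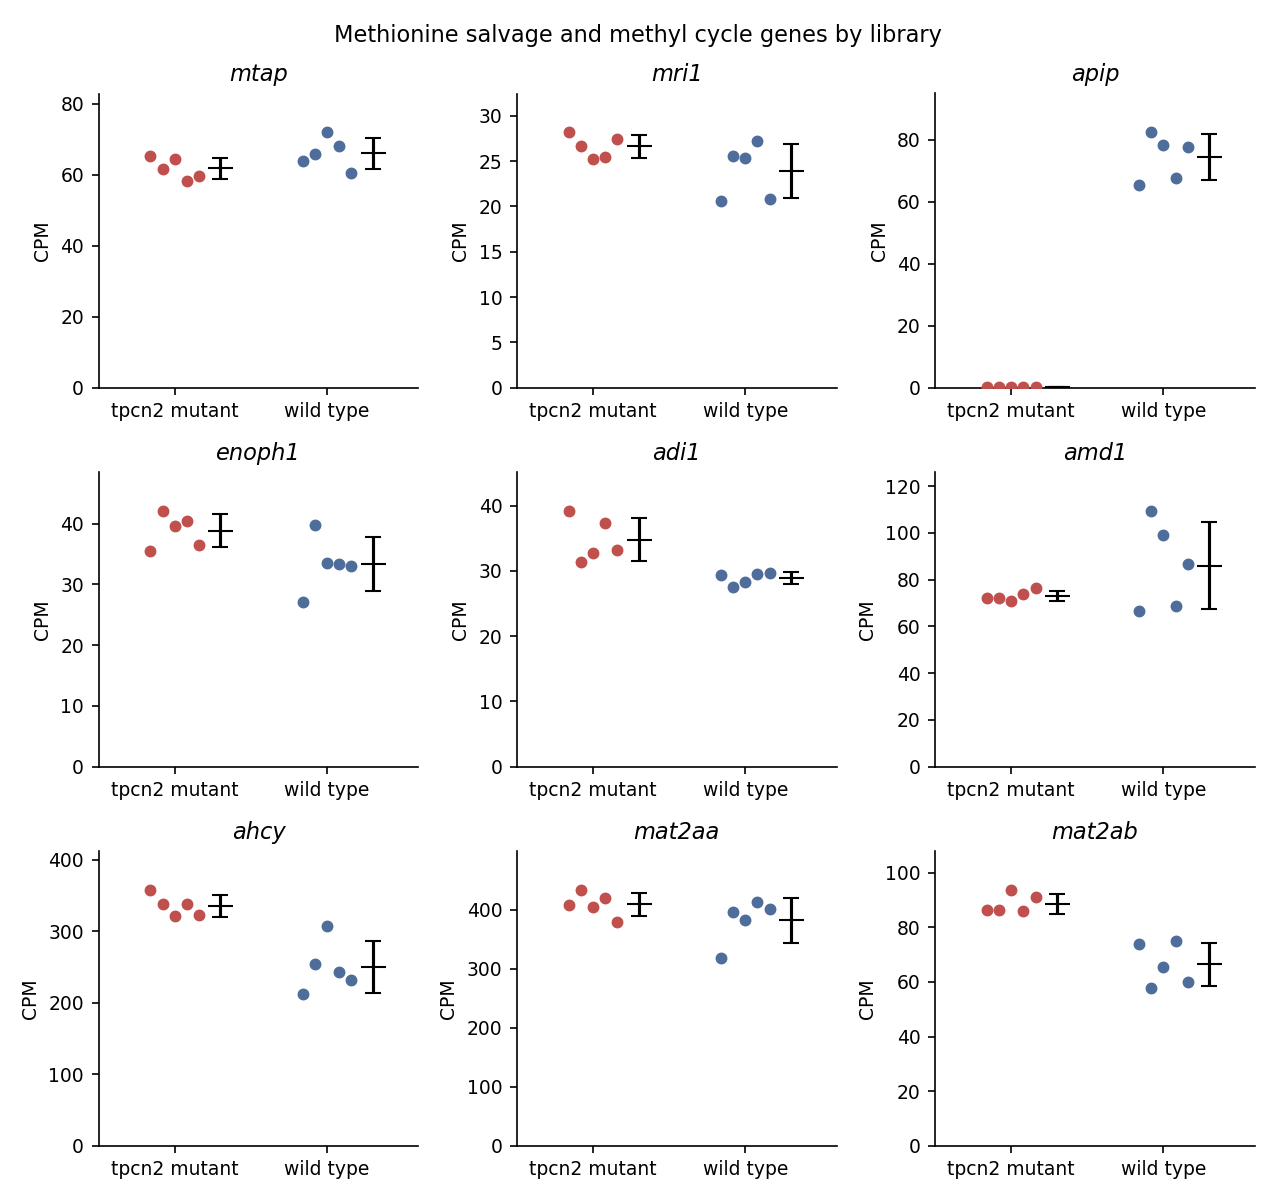
Level of each gene in every library (CPM, y axis from 0), tpcn2 mutant left and wild type right; points are replicates 1 to 5 in order, bars are mean ± SD. apip lies at 0.0556 to 0.335 CPM in mutant embryos, against 65.5 to 82.5 CPM in wild type, while the other 8 genes keep levels of the same order in both genotypes.

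The other 8 members did not show a loss of that kind. The aminotransferase step that ends salvage is not among them. Of the listed genes that can serve there, got1 (log2 fold change -3.37), got2a (-1.08) and kyat1 (-0.54) fell. got2b rose (0.19), a call that did not hold in every alternative, and kyat3 (-0.12) did not pass, as described below. Of the 8 other members, 3 rose in the mutant (adi1, ahcy and mat2ab), 0 fell and 5 did not pass (edgeR quasi-likelihood test, Benjamini-Hochberg adjusted p under 0.05 over all tested genes). Across all tested genes 20.6% were called higher and 21.6% lower. With 3 of 8 (37.5%) the share called higher is above that background, but it rests on few genes. In either direction the share of members called was also 37.5%, below the 42.2% of all tested genes. The count of 0 lower members was also 0 at an unadjusted p under 0.05, and 0 under DESeq2 and limma-voom. The fitted log2 fold changes of the 8 genes ran between -0.24 and 0.43 with a median of 0.19, beside a median of -0.0011 over all tested genes. Their median size regardless of sign was 0.23, beside 0.22 over all tested genes.

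Upstream of apip, mtap and mri1 did not pass. mtap was at 58.2 to 65.1 CPM in mutant embryos, against 60.6 to 72.1 CPM in wild type, with overlapping groups (log2 fold change -0.10 ± 0.0527 (SE), edgeR adjusted p = 0.207). mri1, which supplies the substrate of Apip, was at 28.2, 26.7, 25.2, 25.5 and 27.5 CPM in mutant replicates 1 to 5, against 20.6, 25.5, 25.4, 27.2 and 20.9 CPM in wild type. Its wild-type libraries split into 2 low and 3 higher ones, and the highest exceeded 3 mutant libraries. The log2 fold change was 0.16 ± 0.0881 (edgeR adjusted p = 0.172), with a 95% interval of -0.024 to 0.35 by limma-voom. For mtap that interval was -0.22 to 0.033.

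Downstream of apip, enoph1 and adi1 were the next enzymes. enoph1 was at 35.6, 42.1, 39.6, 40.4 and 36.5 CPM in mutant replicates 1 to 5, against 27.2, 39.8, 33.5, 33.3 and 33.1 CPM in wild type. Wild-type replicate 2 lay among the mutant libraries and the other wild-type libraries lay below all of them. enoph1 did not pass (log2 fold change 0.22 ± 0.0982, edgeR adjusted p = 0.0634), but it passed with DESeq2 (0.0476), with the replicate number as a block (0.0262) and without wild-type replicate 2 (0.0113). Without wild-type replicate 1 its adjusted p was 0.121, and over all 17 alternatives it ran from 0.0113 to 0.145.

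adi1 rose, by a small amount. It was at 39.2, 31.4, 32.7, 37.3 and 33.2 CPM in mutant replicates 1 to 5, against 29.3, 27.6, 28.2, 29.5 and 29.6 CPM in wild type. Every mutant library lay above every wild-type library, and mutant replicates 1 and 4 were the highest. Libraries of the mutant lay wholly above those of wild type for 13.7% of tested genes and wholly below for 15.0%; among the 8 members the counts were 3 above and 0 below. The means were 34.8 ± 3.32 CPM in mutant embryos, against 28.9 ± 0.906 CPM in wild type (SD, n = 5), a log2 fold change of 0.27 ± 0.064 (edgeR adjusted p = 0.0089).

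amd1 encodes the decarboxylase that commits S-adenosylmethionine to polyamine synthesis, the source of the salvage substrate. It was at 72.1, 72.2, 71.0, 73.6 and 76.5 CPM in mutant replicates 1 to 5, against 66.4, 109.4, 99.0, 68.5 and 86.7 CPM in wild type. The mutant libraries were close together and lay inside the wild-type range, in which replicates 1 and 4 were low and 2 and 3 high. The coefficient of variation was 2.88% in the mutant and 21.8% in wild type. amd1 did not pass (log2 fold change -0.24 ± 0.143, edgeR adjusted p = 0.113). It passed as lower without wild-type replicate 1 (-0.32, adjusted p = 0.018) or without wild-type replicate 4 (-0.31, adjusted p = 0.0401), which makes 1 lower member in place of 0. Over all 17 alternatives its adjusted p ran from 0.018 to 0.31.

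In the methyl cycle, ahcy rose. Ahcy, the hydrolase that cleaves S-adenosylhomocysteine and so relieves inhibition of methyltransferases, is the route from used methyl donor to homocysteine. Its transcript was at 358, 338, 321, 338 and 323 CPM in mutant replicates 1 to 5, against 212, 255, 308, 243 and 231 CPM in wild type. No libraries overlapped, although wild-type replicate 3 came near the lowest mutant library. The means were 335 ± 15.0 CPM in mutant embryos, against 249.7 ± 36.0 CPM in wild type (SD, n = 5), a log2 fold change of 0.43 ± 0.094 (edgeR adjusted p = 0.000658).

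Of the members, mat2aa and mat2ab are genes of the ubiquitous methionine adenosyltransferase, which makes S-adenosylmethionine, and they gave different calls. mat2ab was at 86.3, 86.2, 93.8, 85.8 and 91.3 CPM in mutant replicates 1 to 5, against 73.9, 57.8, 65.5, 75.2 and 60.1 CPM in wild type, with no overlap. It rose by 0.42 ± 0.0805 on the log2 scale (edgeR adjusted p = 0.000422). mat2aa was at 380 to 434 CPM in mutant embryos, against 318 to 414 CPM in wild type. It did not pass (log2 fold change 0.10 ± 0.075, edgeR adjusted p = 0.243, 95% interval -0.035 to 0.24 by limma-voom). mat2aa took 82.2 ± 1.20% of the reads of the pair in the mutant and 85.1 ± 2.46% in wild type (SD, n = 5), and these shares overlapped between the groups. They are shares of reads, not corrected for transcript length, and reads may be split between such close paralogs. The difference between the paralogs' changes was not tested. By symbol mat2al is a further gene of this family, outside the members and outside the pair. It was at 61.4 ± 8.04 CPM in mutant embryos, against 55.2 ± 13.2 CPM in wild type (SD, n = 5). It did not pass (log2 fold change 0.155 ± 0.178, edgeR adjusted p = 0.395).

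**Figure D2:**
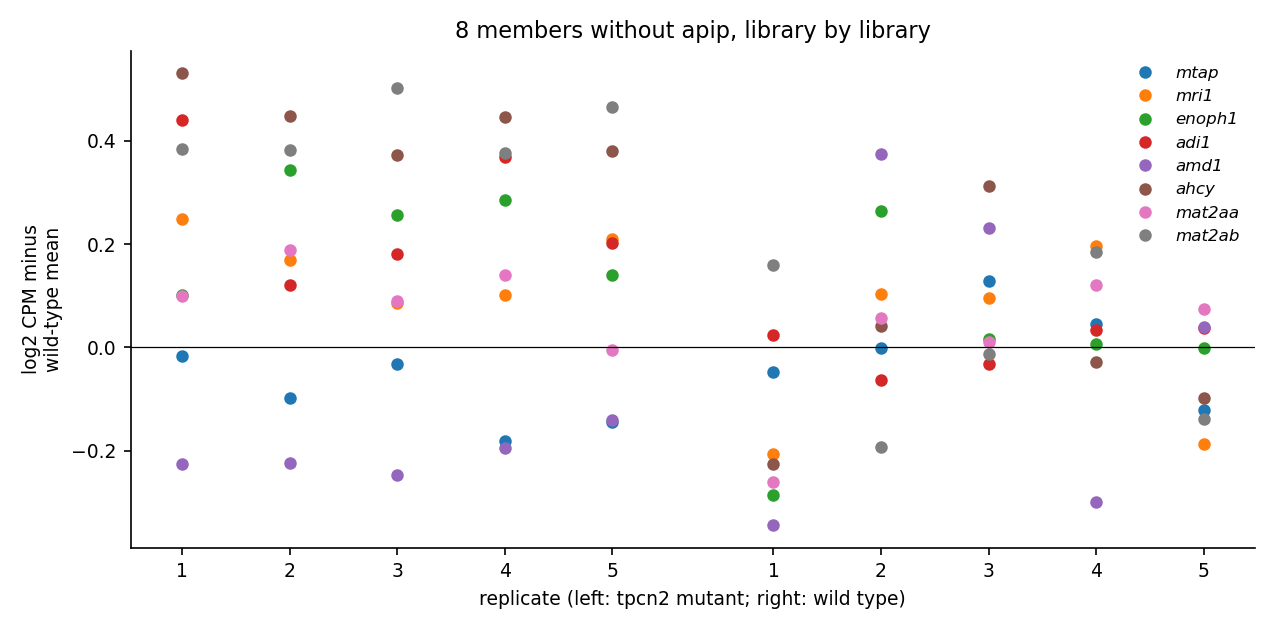
log2 CPM of the 8 members without apip in each library, minus the gene's wild-type mean (y axis), by replicate (x axis, tpcn2 mutant left, wild type right). ahcy, mat2ab and adi1, and also enoph1 and mri1, lie above 0 in every mutant library, and wild-type replicate 1 has the lowest wild-type value of 5 of the 8 genes shown.

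Wild-type replicate 1 held the lowest wild-type level of 6 of the 9 members, namely apip, mri1, enoph1, amd1, ahcy and mat2aa. The same library was the lowest of the wild types for 27.5% of all tested genes. It stands apart from the other wild types on the second principal component of all tested genes, with a score of 33.3 against -17.0 to -0.712 (10.1% of the variance). adi1, ahcy and mat2ab also passed without it, and mean wild-type levels were 259 ± 33.7 CPM for ahcy, 64.7 ± 7.72 CPM for mat2ab and 28.7 ± 0.997 CPM for adi1 (SD, n = 4). The relative spread was wider in wild type than in the mutant for 7 of the 9 members and for 66.0% of tested genes.

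Beyond the members, aminotransferases that can close the salvage pathway were listed together with adenine reuse. Of 6 tested genes, 3 fell and 1 rose (66.7% called, against 42.2% of all tested genes). That share rests on few genes, and the list was chosen with earlier results of these data known. got1, cytosolic aspartate aminotransferase, was at 18.2, 14.5, 11.8, 9.72 and 11.0 CPM in mutant replicates 1 to 5, against 156, 101, 149, 140 and 125 CPM in wild type. All mutant libraries were far below all wild-type libraries (log2 fold change -3.37 ± 0.195, edgeR adjusted p = 1.82e-09). The mitochondrial paralog got2a fell too (-1.08 ± 0.267, edgeR adjusted p = 0.00116), with overlapping libraries. kyat1, listed as ccbl1, which encodes a kynurenine and glutamine aminotransferase, fell by 0.54 ± 0.166 on the log2 scale (edgeR adjusted p = 0.00944). Its paralog kyat3, listed as ccbl2, was at 21.2 ± 2.07 CPM in mutant embryos, against 23.1 ± 1.61 CPM in wild type (SD, n = 5). It did not pass (log2 fold change -0.12 ± 0.0772, edgeR adjusted p = 0.263). Which of these enzymes closes salvage in the embryo was not tested. got2b rose by 0.19 ± 0.0755 (edgeR adjusted p = 0.0389), a call that ended without wild-type replicate 2, 3 or 5 or mutant replicate 1, 2, 3 or 5 (adjusted p 0.0505 to 0.0935). aprt, which reuses the adenine that Mtap releases, was at 65.7 ± 2.03 CPM in mutant embryos, against 65.9 ± 2.98 CPM in wild type (SD, n = 5) and did not pass. tat, a liver aminotransferase, had 0 reads in the mutant libraries and 1 in the wild-type libraries.

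Polyamine genes moved in both directions, with 4 of 15 falling and 2 rising (40.0% called, against 42.2% of all tested genes). The synthesis genes odc1 and srm did not pass, with odc1 at 523 ± 33.7 CPM in mutant embryos, against 509 ± 68.6 CPM in wild type (SD, n = 5). sms, spermine synthase, fell slightly (-0.26 ± 0.0763, edgeR adjusted p = 0.0106). Acetyltransferase genes of polyamine breakdown also fell, sat1a.2 to 15.4 ± 1.69 CPM in the mutant, against 34.6 ± 3.02 CPM in wild type (edgeR adjusted p = 3.48e-07), and sat1b to 1.46 ± 0.274 CPM in the mutant, against 2.68 ± 0.389 CPM in wild type (edgeR adjusted p = 0.0029). The neighbouring copy sat1a.1 did not pass, and reads may be split between such copies.

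Of 4 antizyme genes, whose proteins send ornithine decarboxylase to degradation, 1 fell and 1 rose, and oaz2a and oaz2b did not pass. Among all tested genes 42.2% were called in either direction. oaz1b fell to 546 ± 23.8 CPM in the mutant, against 723 ± 11.8 CPM in wild type (log2 fold change -0.41 ± 0.0302, edgeR adjusted p = 3.59e-06). oaz1a was at 378 to 460 CPM in mutant embryos, against 261 to 383 CPM in wild type and rose by 0.44 ± 0.109 (edgeR adjusted p = 0.00134). azin1b, an antizyme inhibitor gene, rose as well (0.44 ± 0.159, edgeR adjusted p = 0.0168).

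Of 18 other tested genes of the methyl cycle and transsulfuration, 4 rose and 1 fell (27.8% called, against 42.2% of all tested genes). The lower count was 2 in 5 of the 17 alternatives, among them those without wild-type replicate 1 or 4. adka, an adenosine kinase gene whose product removes the adenosine that Ahcy releases, was at 488, 438, 474, 433 and 422 CPM in mutant replicates 1 to 5, against 268, 249.8, 221, 257 and 244 CPM in wild type. It rose by 0.86 ± 0.062 (edgeR adjusted p = 7.86e-08) with no overlap, and its paralog adkb did not pass (-0.094). pemt, a methyltransferase of phosphatidylcholine synthesis, rose by 0.86 ± 0.119 (edgeR adjusted p = 0.000124). Of the genes that bring methyl groups back to homocysteine, bhmt rose by 0.35 ± 0.11 (edgeR adjusted p = 0.00529), whereas mtr did not pass (-0.11). cbsb, which draws homocysteine into transsulfuration, fell to 85.4 ± 2.98 CPM in the mutant, against 148 ± 6.11 CPM in wild type (log2 fold change -0.80 ± 0.0345, edgeR adjusted p = 2.09e-08), and cbsa did not pass (-0.22). mat2b, the regulatory subunit of the adenosyltransferase, was at 43.8 ± 1.70 CPM in mutant embryos, against 43.1 ± 2.09 CPM in wild type (SD, n = 5). mat1a, the adenosyltransferase gene of adult liver in mammals, was at 326 ± 29.6 CPM in mutant embryos, against 322 ± 32.0 CPM in wild type, and did not pass either.

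**Figure D3:**
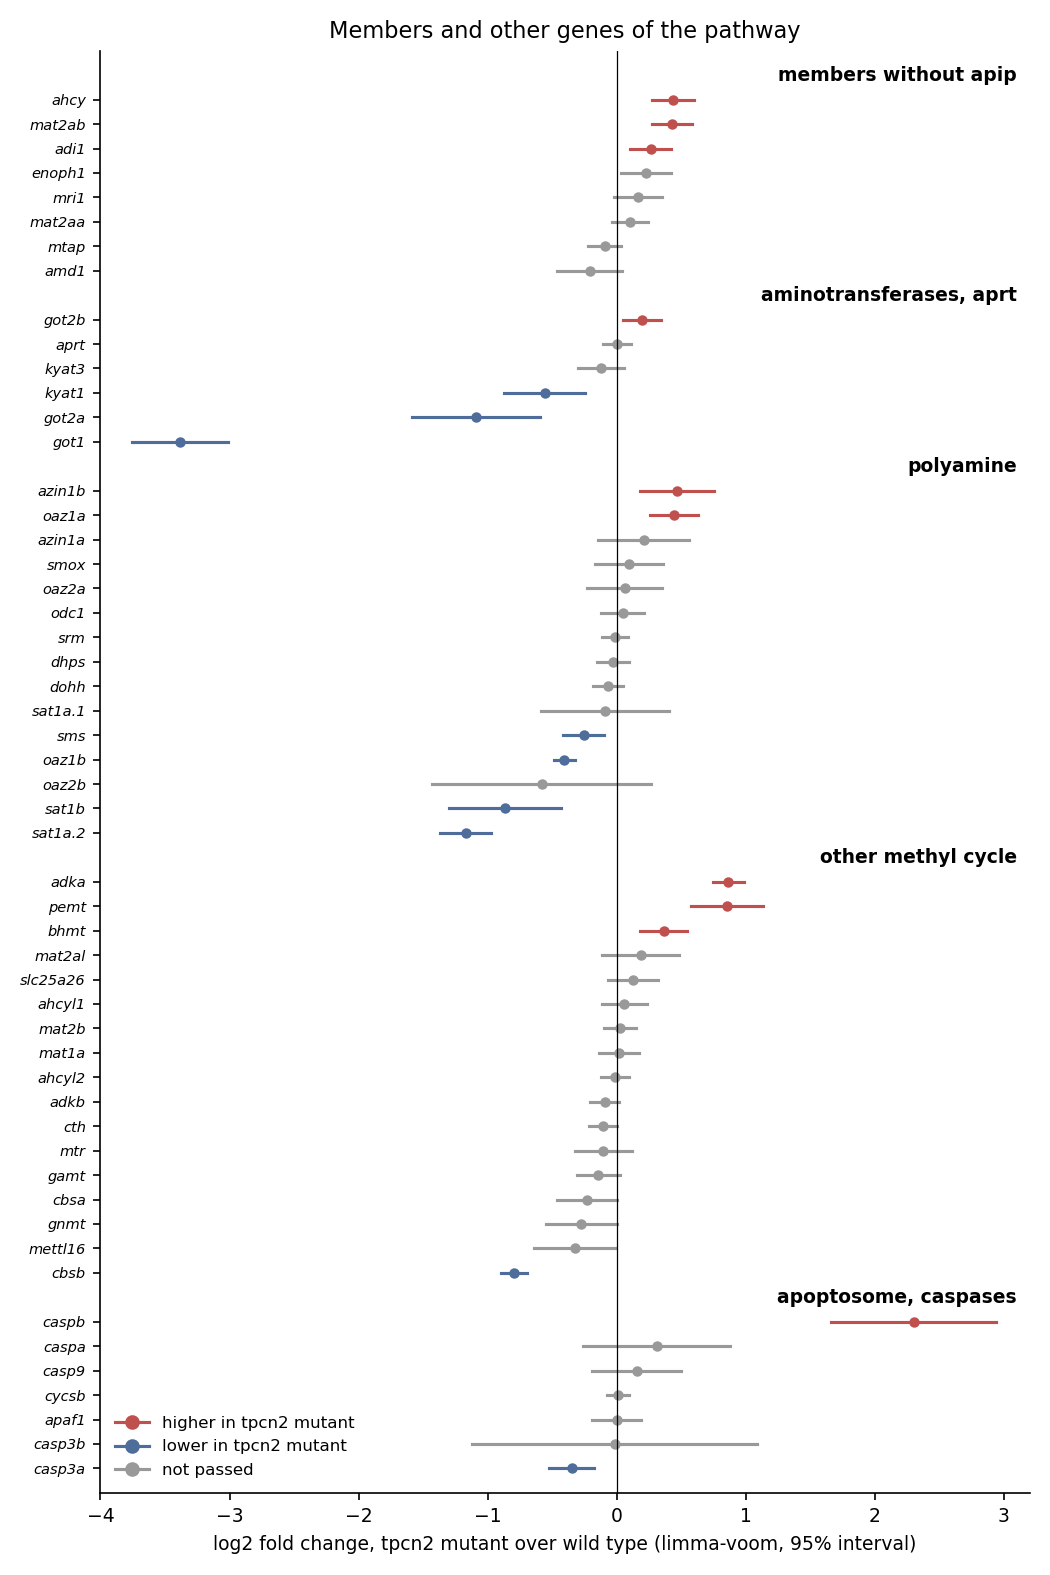
log2 fold change of tpcn2 mutant over wild type with its 95% interval by limma-voom (x axis) for the 8 members without apip and the tested genes of the 4 other lists except 2 (y axis); colour gives the edgeR call. The members lie between -0.24 and 0.43 (edgeR), with a median size regardless of sign of 0.23, beside 0.22 over all tested genes. The lowest and highest genes shown are got1 at -3.37 (edgeR) and caspb at 2.11 (edgeR).

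In mammals APIP is also known as a partner of APAF1 that restrains caspases, so the apoptosome genes were read too. apaf1 itself was at 30.3 ± 2.98 CPM in mutant embryos, against 30.2 ± 3.08 CPM in wild type (SD, n = 5), and casp9 at 8.17 ± 2.14 CPM in mutant embryos, against 7.14 ± 1.01 CPM in wild type; neither passed. Of 8 tested genes, 2 rose and 1 fell, 37.5% called against 42.2% of all tested genes. The effector caspase gene casp3a fell by 0.36 ± 0.0847 (edgeR adjusted p = 0.00303). caspb, an inflammatory caspase gene, was at 15.9 to 24.9 CPM in mutant embryos, against 2.02 to 8.18 CPM in wild type (log2 fold change 2.11 ± 0.429, edgeR adjusted p = 0.000103).

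The position of apip was read from the RefSeq gene order of the GRCz12tu assembly, used for order alone because the submitters' processing notes name other builds. Of the 9 members, apip was the 1 that shares a chromosome with tpcn2, with 93 tested genes between them. Those 93 genes held 34 calls (36.6%) and 3 genes called and changed at least 2-fold (3.23%). Of the 570 tested genes of this chromosome without apip and tpcn2, 37.2% were called and 4.04% were called and changed at least 2-fold. The stretch is part of that set, and its shares were near those of the chromosome. On the other chromosomes 42.5% of tested genes were called and 5.65% were called and changed at least 2-fold. Of the 3 genes changed at least 2-fold in that stretch, 1 was lower and 2 were higher in the mutant. Around apip itself the share called was not lower than on the other chromosomes. Of the 50 tested genes nearest to it, 25 on each side, 22 were called (44%) and 3 were called and changed at least 2-fold. The genes of this window on the tpcn2 side belong to the stretch as well.

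Next to apip on the gene order, slc1a2a, a glutamate transporter gene, had 2, 0, 1, 3 and 4 reads in mutant replicates 1 to 5, against 6, 4, 46, 29 and 42 reads in wild type. The groups overlapped, with wild-type replicate 2 at 0.190 CPM and mutant replicate 5 at 0.223 CPM. Wild-type replicate 1 came close to the mutant libraries, and the gene was below the filter on low counts. On the other side hsd17b12b, a steroid and fatty acid reductase gene, was at 12.5 ± 2.55 CPM in mutant embryos, against 11.4 ± 3.91 CPM in wild type (SD, n = 5) and did not pass. Of the 5 nearest genes of the table on each side, 8 were tested. For comparison, 42.2% of all tested genes were called in either direction. The Ras gene hrasb (0.43 ± 0.0676, edgeR adjusted p = 0.000325) and rassf7b (0.33 ± 0.117, edgeR adjusted p = 0.0238) rose, and hddc3 fell by 0.49 ± 0.0676 (edgeR adjusted p = 8.03e-05). igf2a, ascl1b, prc1b and vps33b did not pass, although vps33b did as lower without mutant replicate 4 (adjusted p = 0.0399), and mir129-2 had no reads. The rassf7b call ended without mutant replicate 3 (adjusted p = 0.0623) or 4 (0.0594), with a range of 0.0048 to 0.0623 over the 17 alternatives.

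**Figure D4:**
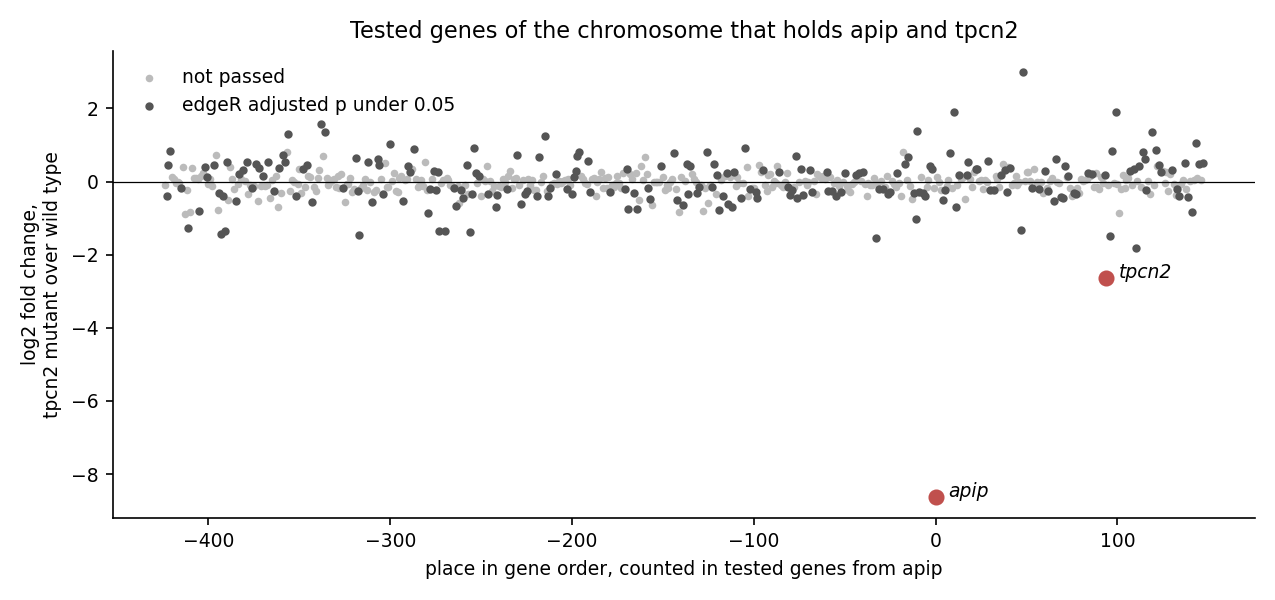
Fitted log2 fold change of tpcn2 mutant over wild type (y axis) for the tested genes of the chromosome that holds apip and tpcn2, by place in the gene order counted from apip (x axis). apip at -8.61 and tpcn2 at -2.64 are the lowest points, 94 places apart, with genes on both sides of 0 between them.

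The 5 genes with profiles nearest to that of apip were sc:d217, fut9d, cyp4v7, gsnb and znf1005. Likeness was the root mean square difference, over the 10 libraries, of log2 CPM relative to each gene's wild-type mean. It was 2.28 for sc:d217, beside a median of 5.77 over all tested genes. These 5 were picked for the smallest values, so lying below that median is fixed by the choice. They are a description and carry no test. The prior count of 2 limits how far a gene with few wild-type reads can fall on this scale. gsnb, a gelsolin gene, was the most highly counted of the 5, with 436 reads in the mutant and 10429 in wild type.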

How the data were processed

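Whole-embryo RNA-seq of 5 tpcn2 mutant and 5 wild-type libraries was used. The authors deposited a table of raw counts per gene symbol, whole numbers with a different total in each library. Their own comparison, per the file headers, gives log2 fold changes, p-values, a score (standard error and test statistic) and a signal, the mean of normalized counts; its direction follows from the sign of tpcn2. The submitters' processing notes name 2 builds, danRer10 and mm10, besides cutadapt 3.4, STAR 2.7 and DESeq2 1.30.0. How reads were counted, with which annotation and whether by strand, is not given in the sources used here, so antisense reads of an overlapping gene may be included. Of the members, mtap, enoph1, amd1 and mat2ab overlap other genes in RefSeq. None of those other genes has counts here under its RefSeq symbol.

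Genes kept by filterByExpr (11871 of 14650) were TMM-scaled, and edgeR 4.0.16 (R 4.3.3) fitted them by quasi-likelihood, with genotype as the single term, Benjamini-Hochberg adjustment over all tested genes, threshold 0.05. SE values come from the spread of log2 CPM (prior count 2); 95% intervals from limma 3.58.1. The fit was run on simulated counts in which far fewer genes changed than were called here. That run does not test the fit at the extent of change seen here. Alternatives were RLE factors, library size alone, DESeq2 1.42.0, limma-voom, 2 other filters, the replicate number as a block and leaving out each library. No coordinates are given.

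Members and lists were chosen with earlier results of these data known. Named were the members, tpcn2, up to 4 genes per list and direction past 0.05 by smallest p and any list gene with under 3 counts in every library, 5 neighbours of apip on each side and its 5 nearest profiles; 2 genes so chosen are counted but not reported here, and other genes were named after their values were seen. Of the list genes il4i1, paox, ahcyl2b and mtrr were not analysed here, and cthl was below the filter. 14265 of 14650 symbols matched the RefSeq table.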

Additional observations from a re-analysis of the deposited data

How the results depend on the processing

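The log2 fold changes of all 9 members kept their sign under the 17 alternatives, and adi1, ahcy and mat2ab passed in each of them. The count of members called higher was 3 to 4 and of members called lower 0 to 1 over all alternatives; the lower count was 0 to 1 when 1 library was left out, and 1 without wild-type replicate 1 or 4. Calls over all genes ran from 4484 to 5312 when 1 library was left out, and were 4829 with the replicate number as a block. Same-numbered libraries did not deviate together (correlations -0.0615 to 0.0745 over the 5 pairs), so no pairing by replicate number was seen. These correlations cannot show how the embryos were collected. The block on replicate number raised the members called higher to 4 by adding enoph1. Among neighbours of apip that did not pass, leaving out 1 library turned the sign of hsd17b12b (-0.040 without wild-type replicate 1; range -0.040 to 0.26), prc1b (0.014 without wild-type replicate 1, 0.023 without wild-type replicate 2 and 0.0067 without mutant replicate 2; range -0.087 to 0.023) and igf2a (-0.0074 without mutant replicate 3; range -0.0074 to 0.099); the cause was not tested. mettl16 passed as lower with library size alone (adjusted p = 0.048), with DESeq2 (0.0351) and without wild-type replicate 4 (0.00774), against 0.053 with all libraries. The other additions to the lower methyl cycle genes were gamt without wild-type replicate 1 (0.0151) and cthl with no filter on low counts (0.0165). Genes with few reads per library, such as casp3b, oaz2b and slc1a2a, are limited by depth.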
